A study of Mus musculus with 12 samples.

Results

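Microglia, the resident macrophages of the brain, read extracellular nucleotides and the chemokine fractalkine through a small set of surface proteins, and the mRNA of 10 genes of that system was followed here. They are the ADP and UDP receptors P2ry12, P2ry13 and P2ry6, the ATP-gated channels P2rx4 and P2rx7, the ectonucleotidase Entpd1, the lysophosphatidylserine receptor Gpr34, the fractalkine receptor Cx3cr1, its ligand Cx3cl1 and the adenosine receptor Adora1. The genes were taken by symbol, and 10 of 10 were found among the 29957 named genes of the microglia table and among the 14663 of the hippocampus table. The 12 samples were from C57BL/6 mice and formed 4 groups of 3: microglia of the hippocampus from mice aged 3 or 24 months, and the hippocampus as whole tissue from mice aged 6 or 18 months. No transgene, deletion or treatment is named in the labels for any group. The labels do not give the sex, how the microglia were isolated, or whether each sample was taken from a different mouse. The p-values therefore speak only of the scatter among these samples, which may be technical.

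ATP and ADP leak from damaged or active cells and act on microglia at once. P2Y12 and P2Y13 are receptors for ADP, and P2Y12 steers microglial processes toward a source of it. P2Y6 responds to UDP and is known for promoting phagocytosis. P2X4 and P2X7 are cation channels opened by ATP, and P2X7 feeds the NLRP3 inflammasome. CD39, the product of Entpd1, breaks ATP and ADP down to AMP, CD73 (Nt5e) turns AMP into adenosine, and adenosine acts on receptors such as A1 (Adora1). Fractalkine (Cx3cl1) is made chiefly by neurons as a membrane protein that can be shed, and its receptor CX3CR1 sits on microglia.

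P2ry12 and P2ry13 are neighbours. In GRCm38 (GENCODE M21), P2ry13 lies on chromosome 3 at 59207892 to 59210882 and P2ry12 at 59216272 to 59262871, both on the minus strand, with 5389 bases between them. Both genes lie inside Med12l, which runs on the opposite strand and shares 9 exonic bases with P2ry12 and 0 with P2ry13. P2rx7 (chromosome 5, 122643911 to 122691432) and P2rx4 (122707544 to 122729738) are also neighbours, on the plus strand and 16111 bases apart. Cx3cr1 lies on chromosome 9 at 119901616 to 120069879, minus strand. Gpr34 lies on chromosome X at 13632089 to 13640858, inside an intron of Cask on the opposite strand. The other genes are P2ry6 on chromosome 7 (100937630 to 100974649), Entpd1 on chromosome 19 (40612366 to 40741602), Cx3cl1 on chromosome 8 (94772009 to 94782427) and Adora1 on chromosome 1 (134199223 to 134235431).

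RefSeq promoter sequences (GRCm38.p6) were matched for 8 of the 10 genes, with 11 start sites. The 250 bases before the start site are shown for the paired ADP receptors and for Cx3cr1, because these are the neighbouring loci and the most abundant receptor described below. Each is read 5′ to 3′ on the gene's own (minus) strand, and capitals mark the letters AGGAAG, the core that the myeloid factor PU.1 is known to prefer, searched on both strands. The motifs were chosen with the sequences in view.
P2ry12, chr3:59262986-59263235: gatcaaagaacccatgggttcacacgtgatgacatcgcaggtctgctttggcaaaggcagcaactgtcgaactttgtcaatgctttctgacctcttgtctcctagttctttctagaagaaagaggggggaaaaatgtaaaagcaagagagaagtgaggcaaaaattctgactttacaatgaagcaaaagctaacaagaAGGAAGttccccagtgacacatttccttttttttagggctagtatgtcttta
P2ry13, chr3:59210883-59211132: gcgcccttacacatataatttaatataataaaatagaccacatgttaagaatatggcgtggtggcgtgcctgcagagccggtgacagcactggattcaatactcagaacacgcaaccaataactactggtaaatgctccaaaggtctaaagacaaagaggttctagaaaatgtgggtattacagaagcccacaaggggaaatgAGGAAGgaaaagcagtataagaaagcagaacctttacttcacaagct
Cx3cr1, chr9:120068297-120068546: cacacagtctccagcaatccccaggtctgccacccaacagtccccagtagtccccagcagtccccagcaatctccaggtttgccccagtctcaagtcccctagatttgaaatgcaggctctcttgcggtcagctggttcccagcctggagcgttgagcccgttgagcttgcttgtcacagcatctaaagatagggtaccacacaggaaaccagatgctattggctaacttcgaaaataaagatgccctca
The P2ry12 window held AGGAAG once, 52 bases before the start site. In the P2ry13 window the same letters began 47 bases before the start site and overlapped a second motif, GAGGAA, which began 48 bases before it. The Cx3cr1 window held neither of these, nor the AP-1 core, TGANTCA. Across 32851 promoter windows of this length, the first motif was present in 29.5%, the second in 23.3% and the AP-1 core in 6.75%, on either strand. A match is a description of the letters and not a measured binding site.

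Young and old microglia carried abundant mRNA for most of these genes. On the length-corrected TPM scale, Cx3cr1 had the highest mean level over the 6 microglia libraries, 2977 TPM (range 2297 to 3433), and stood at rank 25 of all genes. P2ry12 followed at 2335 TPM (2055 to 2533, rank 29), and its range overlapped that of Cx3cr1. P2ry13 had a mean of 1619 TPM (1100 to 1956) and Gpr34 one of 1390.3 TPM (1179 to 1609), with ranges that overlapped each other but not that of P2ry12. Entpd1 lay below all of them at 641 TPM (513 to 758). Its range touched that of P2ry6, which had a mean of 366 TPM (174 to 524). The channels were lower and close together, P2rx4 at 163 TPM (73.7 to 255) and P2rx7 at 136 TPM (66.3 to 194). Adora1, at 1.26 TPM (0 to 3.84), and Cx3cl1, at 0.196 TPM (0 to 1.18), were near the limit of detection. The order therefore had 8 genes that microglia plainly transcribed and 2 that they hardly did.

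Estimated counts per microglia library ran from 8068023 to 14217142, over 11789 to 13839 genes above 0. Of 7840 genes with a mean above 10 CPM (counts scaled to a common library size), 394 were at 0 in 3 month replicate 1 and 186 in 24 month replicate 1, against 26 to 62 in the others. The 15 microglia identity genes summed to 82398 to 88641 CPM at 3 months and 65722 to 84434 CPM at 24 months, while the 9 neuron genes summed to 10.8 to 118 CPM. Of these, Tubb3 and Slc17a7 were at 0 in every microglia library, and Camk2a was found in all of them (9.60 to 117 CPM). A set of 16 immediate early and dissociation stress genes summed to 1249 to 2089 CPM in the young libraries, 33682 and 35655 CPM in 24 month replicates 1 and 2, and 1641 CPM in 24 month replicate 3. Monocyte and neutrophil genes (8 listed) summed to 2387 CPM in 24 month replicate 1, 48.1 CPM in 24 month replicate 2, and 1.97 to 9.60 CPM in the other 4 libraries. In 24 month replicate 1 the sum was nearly all S100a8 (1289 CPM), Ngp (491 CPM), S100a9 (319 CPM) and Camp (286 CPM). Ccr2, Ly6c2, Vcan and Plac8 were at 0 to 0.529 CPM in that library. In 24 month replicate 2 the largest were Ccr2 (21.8 CPM) and S100a8 (21.5 CPM).

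At 24 against 3 months, none of the 9 genes tested in microglia passed an adjusted p of 0.05 in edgeR's quasi-likelihood test, where 0% of all 10663 tested genes passed. The smallest adjusted p among them was 0.546 (Adora1), and DESeq2's Wald test called 1 of them, also Adora1. At an unadjusted p under 0.05, 1 was higher (Adora1) and 1 was lower (P2ry6), against 3.52% of all tested genes higher and 2.02% lower. Their median log2 change was -0.14, against 0.01 for all genes tested, with 3 higher and 6 lower in mean. The ages were fully separated for Adora1 (1 gene, old above young) and P2ry6 (1 gene, old below young), while 7.26% of all genes lay entirely above and 6.19% entirely below. A p that missed the threshold does not show equal levels, and the intervals below give the sizes the data allow.

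P2ry12, the ADP receptor most used to identify homeostatic microglia, had 3576, 2986 and 3395 CPM at 3 months and 3636, 3615 and 2946 CPM at 24 months. The ages overlapped, and the lowest library was an old one. The mean was 3319 ± 302 CPM (SD, n = 3) in young and 3399 ± 393 CPM (SD, n = 3) in old microglia. The log2 change was 0.03 with a standard error of 0.17 and an edgeR adjusted p of 0.998, and its 95% interval, 0.780-fold to 1.34-fold, gives the range of change the 6 libraries allow.

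P2ry13 had 2935, 3123 and 3188 CPM at 3 months and 2023, 2247 and 3320 CPM at 24 months. Its 2 low libraries were both old, but the highest was also old, so the ages overlapped. The means were 3082 ± 131 CPM and 2530.2 ± 693 CPM (SD, n = 3 each). This is a log2 change of -0.28 ± 0.22 (SE), with an edgeR adjusted p of 0.993. Without 24 month replicate 3 the log2 change was -0.55 with an adjusted p of 0.157, so the value depends on that library.

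P2ry6, the UDP receptor, had 713, 553 and 517 CPM at 3 months and 242, 352 and 513 CPM at 24 months. Each old library lay below each young one, though 24 month replicate 3 (513.0) and 3 month replicate 3 (516.6) nearly touched. The mean went from 594 ± 104 to 369 ± 136 CPM (SD, n = 3 each), a log2 change of -0.69 ± 0.29 (SE), or 0.621-fold with a 95% interval of 0.386 to 0.997. The unadjusted edgeR p was 0.0489 and the adjusted p 0.898, so it was not called. The log2 change was -1.03 without 24 month replicate 3. It was -0.31 when the first replicate of each age was dropped.

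Gpr34, which responds to lysophosphatidylserine, had 1617, 1919 and 1994 CPM at 3 months and 1879, 2008 and 1559 CPM at 24 months. The ages overlapped throughout. The fit gave a log2 change of -0.02 ± 0.18 (SE), with an edgeR adjusted p of 0.998.

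P2rx4, an ATP-gated channel, had 80.4, 187 and 189 CPM at 3 months and 110.0, 163 and 255 CPM at 24 months. The libraries were spread widely within each age, and the log2 change was 0.21 ± 0.42 (SE), with an edgeR adjusted p of 0.998. P2rx7, the channel coupled to inflammasome activation, had 167, 455 and 315 CPM at 3 months and 263, 246 and 342 CPM at 24 months. The young libraries enclosed the old ones, and the log2 change was -0.14 ± 0.36 (SE), with an adjusted p of 0.998. Its direction changed to 0.22 without 3 month replicate 2.

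Entpd1, which encodes CD39, had 949, 1145 and 861 CPM at 3 months and 980, 683 and 814 CPM at 24 months. The ages overlapped, although the lowest 2 libraries were old. Its log2 change was -0.25 ± 0.20 (SE), with an edgeR adjusted p of 0.993.

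Cx3cr1, the receptor for fractalkine, had 7580, 5952 and 7141 CPM at 3 months and 5362, 6333 and 6974 CPM at 24 months. The mean was 6891 ± 842 CPM in young and 6223 ± 811 CPM in old microglia (SD, n = 3 each). The ages overlapped, and the log2 change was -0.15 ± 0.18 (SE), with an edgeR adjusted p of 0.998. When the first replicate of each age was dropped, the change was 0.02. Its ligand Cx3cl1 was at 0 in 5 of the 6 libraries and at 2.66 CPM in 24 month replicate 3, and was too low to test.

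**Figure D1:**
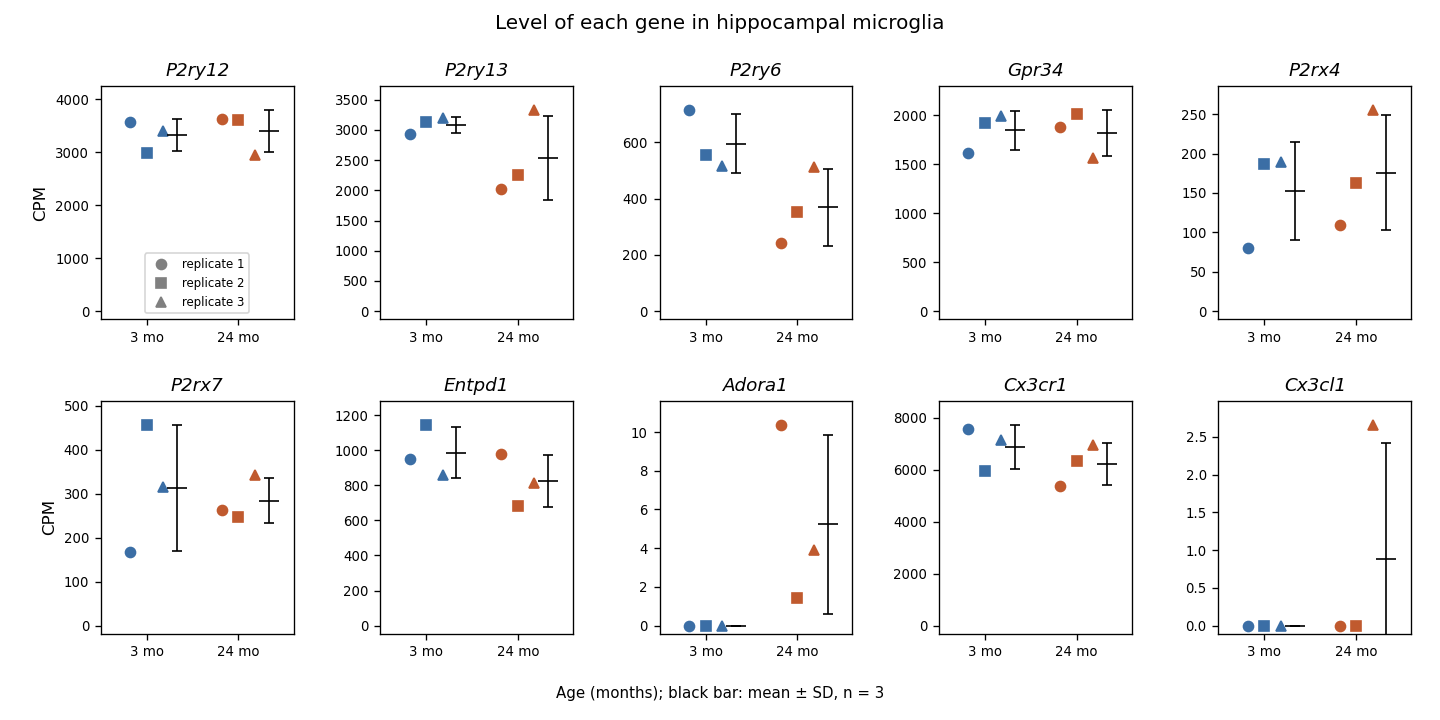
Level of each gene in microglia in CPM (vertical axis, one scale per panel) at 3 and 24 months (horizontal axis); points are the 3 libraries of an age, with the mean and SD beside them. The ages overlap in every panel but P2ry6, where 513.0 CPM in an old library lies just below 516.6 CPM in a young one, and Adora1, which is 0 in every young library.

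Adora1, the adenosine A1 receptor, had no counts in any young library and 98.2, 14.3 and 40.9 estimated counts in the 3 old ones, that is 10.4, 1.41 and 3.89 CPM. Set against a floor of 3 counts for the young group as a whole, the old level was 61.6-fold higher. Without 24 month replicate 1 it was 32.4-fold higher. The floor covers counting error only and not the scatter among libraries. The fitted log2 change in edgeR was 8.85 ± 1.86 (SE), with a 95% interval of 18.5-fold to 11505-fold. edgeR gave an unadjusted p of 0.00384 and an adjusted p of 0.546, so the gene was not called. DESeq2's Wald test on the same counts gave an adjusted p of 0.00331, with 1.68% of tested genes called higher. In the authors' deposited table its log2 change was 8.10 with a standard error of 1.86 and an adjusted p of 0.00181, and 1.54% of that table's genes with an adjusted p were called higher. The calls of the tools thus differ for this gene, at counts of at most 98.2 in a library.

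Adora1 shares 1162 exonic bases with Mybph, a myosin binding protein gene on the opposite strand, and the library method as described does not keep strand. Mybph, chosen after its values were seen, had 0, 1.995 and 0.204 CPM at 3 months and 16.8, 0.807 and 8.64 CPM at 24 months. In old microglia it was highest and lowest in the libraries where Adora1 was, and reads of the 2 genes from the shared stretch cannot be told apart. The summed neuron genes (9 listed) were 10.8 to 44.7 CPM at 3 months and 33.5 to 118 CPM at 24 months, most of it Camk2a. Snap25 reached 9.98 CPM and Syt1 6.56 CPM in 24 month replicate 2, and Rbfox3 4.08 CPM in replicate 3, against at most 0.136 CPM in young libraries. In 24 month replicate 1, where Adora1 was highest, Snap25 was at 0, Syt1 at 0.741 CPM and Rbfox3 at 0.423 CPM. Camk2a was highest in that library, at 117 CPM. Gad2 was also highest in an old library, while Gad1 and Stmn2 were highest in young ones. Tubb3 and Slc17a7 were at 0 throughout. Astrocyte genes (7 listed) summed to 128 to 267 CPM at 3 months and 333 to 459 CPM at 24 months, and endothelial genes (6 listed) to 23.5 to 45.01 and 51.8 to 133 CPM. Most of the astrocyte sum was Slc1a3, at 110 to 246 CPM at 3 months and 285 to 384 CPM at 24 months. Mural genes (5 listed) summed to 0.299 to 0.748 CPM at 3 months and to 224, 38.8 and 0.759 CPM in 24 month replicates 1, 2 and 3. In replicate 1 this was mostly Acta2 (215 CPM), which was at 0.101 CPM in replicate 2, where Rgs5 was at 26.8 CPM and Vtn at 11.9 CPM. Pdgfrb and Kcnj8 were at 0 in every microglia library. The part of these cell type signals in the Adora1 value was not tested.

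The old libraries did not shift together. Relative to the 3 month mean, P2ry6 stood at 40.7%, 59.2% and 86.3% in 24 month replicates 1, 2 and 3. P2ry13 stood at 65.7%, 72.9% and 108% in the same order, and Cx3cr1 at 77.8%, 91.9% and 101%. In these 3 receptors the lowest old library was replicate 1 and the highest replicate 3, and P2rx4 had the same order, at 72.3%, 107% and 167%. P2ry12 had another order, 110% and 109% in replicates 1 and 2 and 88.7% in replicate 3, and so did Gpr34, at 102%, 109% and 84.6%. P2rx7 stood at 84.1%, 78.7% and 109%, and Entpd1 at 99.5%, 69.4% and 82.7%. The stress genes were high in 24 month replicates 1 and 2 and not in replicate 3. P2ry12 and Gpr34 were also higher in replicates 1 and 2 than in replicate 3. P2ry6, P2ry13, Cx3cr1, P2rx4 and P2rx7 were lower in replicates 1 and 2 than in replicate 3. Entpd1 in replicate 3 lay between replicates 1 and 2. Fos, an immediate early gene, was at 4190.4 and 4261 CPM in 24 month replicates 1 and 2, 48.5 CPM in replicate 3 and 2.99 to 28.2 CPM in young libraries. Tnf, an inflammatory cytokine, was at 645 and 467 CPM in the same replicates, 10.2 CPM in replicate 3 and at most 1.97 CPM in young ones. The sum of monocyte and neutrophil genes was highest in 24 month replicate 1, nearly all of it S100a8, Ngp, S100a9 and Camp, as given above. The part of these signals in the receptor values was not tested.

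**Figure D2:**
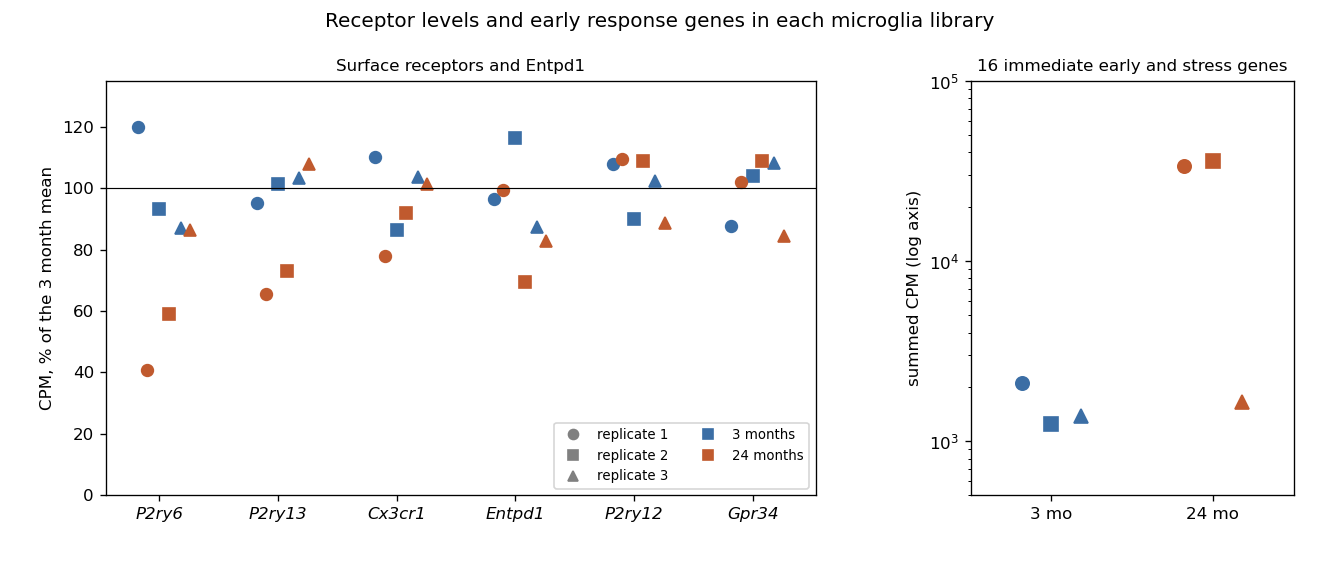
Left, level of the receptors and Entpd1 in each microglia library as a percentage of the 3 month mean (line at 100%); right, summed CPM of 16 immediate early and stress genes per library on a log axis. P2ry6 is lowest at 40.7% in 24 month replicate 1, and the stress sum is 33682 and 35655 CPM in 24 month replicates 1 and 2 against 1641 CPM in replicate 3.

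Among pairs of the 8 abundant genes over the 6 libraries, P2ry13 and P2ry6 had a Pearson r of 0.863 in log2 CPM and P2ry6 and Cx3cr1 one of 0.812. The neighbouring channels P2rx4 and P2rx7 had an r of 0.803. The neighbouring receptors P2ry12 and P2ry13 went opposite ways, with an r of -0.733, and P2ry12 and P2rx7 had an r of -0.786. The points share libraries and ages, and these values are descriptions only.

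Of 3438 genes with a mean of at least 50 CPM, those most like P2ry12 over the 6 libraries included Tmem170b (r = 0.985) and Zfp266 (0.973). For P2ry13 they were Golt1b (0.995), Tspan4 (0.986) and Tbxas1 (0.980), and for Gpr34 Acadm (0.984), Cdip1 (0.976) and Rassf2 (0.960). The genes most like Cx3cr1 were Trim65 (0.990), Cdk6 (0.987) and Cd47 (0.979), and those most like P2rx7 were Tnfrsf1a (0.994), Fam195b (0.979) and Psma5 (0.979). None of those named is another of the 10 genes. Picked as the highest of 3438 correlations over 6 libraries, r values this large can arise without any relation between the genes. They are descriptions only.

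The wider nucleotide and fractalkine system, a list of 62 further genes, had 42 genes tested in microglia and 0 called by edgeR or by DESeq2's Wald test. At an unadjusted p under 0.05, 3 were higher (Rgs1, Rgs2 and Nlrp3) and 2 lower (Adora3 and Pik3r5), beside 3.52% of all tested genes higher and 2.02% lower, and the list's median log2 change was -0.10, against 0.01 for all genes. The ages were fully separated, old below young, for 6 of them (Adora3, Entpd6, Slc29a3, Lrrc8a, Kcnk13 and Pycard) and old above young for 1 (Ctss), beside 6.19% of all tested genes below and 7.26% above. Genes of these 2 counts that the naming rule does not take were named after their values were seen.

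Adora3, the adenosine A3 receptor, had 258, 226 and 224 CPM at 3 months and 145, 112 and 165 CPM at 24 months. All old libraries were lower, and the log2 change was -0.75 ± 0.22 (SE), with an edgeR adjusted p of 0.629. Kcnk13, which encodes the potassium channel THIK-1 that acts with P2Y12, had 237, 236 and 194 CPM at 3 months and 186, 120 and 193 CPM at 24 months. The log2 change was -0.42 ± 0.24 (SE), with an adjusted p of 0.973.

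Nlrp3, the inflammasome sensor fed by P2X7, had 32.2, 36.0 and 48.7 CPM at 3 months and 217, 140 and 47.4 CPM at 24 months, high only in the 2 old libraries with high Fos. Its log2 change was 1.79 ± 0.54 (SE), with an edgeR adjusted p of 0.663. Rgs1, a regulator of G protein signalling, followed the same libraries, with 1.94, 12.6 and 41.5 CPM at 3 months and 270, 289 and 27.5 CPM at 24 months. The fitted log2 change was 3.38 ± 1.18 (SE), with an adjusted p of 0.810. Adam10 and Adam17, which shed fractalkine, had log2 differences of 0.14 ± 0.20 and -0.05 ± 0.19 (SE), with an adjusted p of 0.998 for each. Nt5e, Adora2a, P2ry1 and P2ry14 were too low in microglia to test.

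In whole hippocampus, levels are the deposited normalized counts, and their depth is unknown. Fewer microglia and less RNA per cell cannot be told apart in such tissue samples. Per kilobase of transcript, Cx3cl1 was highest at 315 normalized counts (range over 6 samples 288 to 330). Adora1 followed at 123 (101 to 137), without overlap. The lengths were means over the microglia libraries, where Cx3cl1 and Adora1 were near the limit of detection, and may differ in hippocampus. Cx3cr1, at 31.2 (21.1 to 38.4), overlapped P2ry12, at 22.4 (17.4 to 25.6), and Gpr34 was at 16.1 (8.33 to 23.6). The other genes were lower: P2rx4 at 13.4, P2ry13 at 8.91, Entpd1 at 8.59, P2rx7 at 3.85 and P2ry6 at 3.42. With the total of each table's columns set to the same size as for CPM, Cx3cr1 made up 6536 in microglia and 95.9 in hippocampus, and P2ry12 3342 and 44.7. Cx3cl1 was the other way around, at 0.452 and 1009, and so was Adora1, at 2.59 and 300.7. The tables were scaled separately, so these values were set side by side without a test.

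At 18 against 6 months, none of the 10 genes passed an adjusted p of 0.05 in limma's moderated test, where 0% of all 13491 tested genes passed. No gene of the 10 had an unadjusted p under 0.05, against 2.13% of all tested genes higher and 3.24% lower. For none of them did the ages separate, while 5.03% of all genes lay entirely above and 5.93% entirely below. Their median log2 change was 0.14, against -0.04 for all genes, on the scale of log2(normalized count + 1), which understates the change of low genes.

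Cx3cl1 had 915, 1042 and 1049 normalized counts at 6 months and 1010.2, 1039 and 940.3 at 18 months. The samples lay close together at both ages, and the mean was 1002 ± 75.4 and 997 ± 50.9 (SD, n = 3 each). Its log2 change was -0.01 ± 0.13 (SE), with a limma adjusted p of 0.997 and a 95% interval of 0.826-fold to 1.20-fold. Its receptor Cx3cr1 had 116, 101 and 64.1 normalized counts at 6 months and 70.2, 102 and 117 at 18 months. The ages covered the same span, and the log2 change was 0.05 ± 0.29 (SE), with an adjusted p of 0.992.

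Adora1 had 316, 325 and 284 normalized counts at 6 months and 333, 245 and 285 at 18 months. The ages overlapped, and the log2 change was -0.11 ± 0.17 (SE), with a limma adjusted p of 0.951. Entpd1 had 8.12, 15.3 and 18.7 at 6 months and 35.4, 15.1 and 7.79 at 18 months. The single high sample was 18 month replicate 1, and the log2 change was 0.27 ± 0.71 (SE), or -0.27 without it.

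P2ry12 had 45.6, 34.5 and 42.2 normalized counts at 6 months and 48.5, 44.1 and 50.6 at 18 months. The old samples were mostly higher but overlapped the young ones, with a mean of 40.8 ± 5.67 and 47.7 ± 3.31 (SD, n = 3 each). The log2 change was 0.23 ± 0.34 (SE), with a limma adjusted p of 0.948. P2ry13 had 18.2, 23.5 and 20.3 at 6 months and was listed at 0 in 18 month replicate 1, with 7.21 and 59.0 in the other old samples. The old samples enclosed the young ones, the log2 change was -1.45 ± 1.13 (SE, adjusted p 0.917), and it was 0.04 without 18 month replicate 1. The authors' deposited table gave 0.11 for it.

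Gpr34 had 39.2, 15.1 and 26.5 normalized counts at 6 months and 42.9, 24.6 and 26.6 at 18 months, a log2 change of 0.27 ± 0.50 (SE). P2ry6 stayed between 1.91 and 9.47 in all samples, and its log2 change was 0.28 ± 0.87 (SE). P2rx4 lay between 14.2 and 28.0, with a log2 change of -0.05 ± 0.58 (SE). P2rx7 lay between 6.00 and 7.98 in 5 of the samples and at 35.2 in 18 month replicate 1. The fitted log2 change was 0.73 ± 0.82 (SE) with that sample and -0.00 without it.

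**Figure D3:**
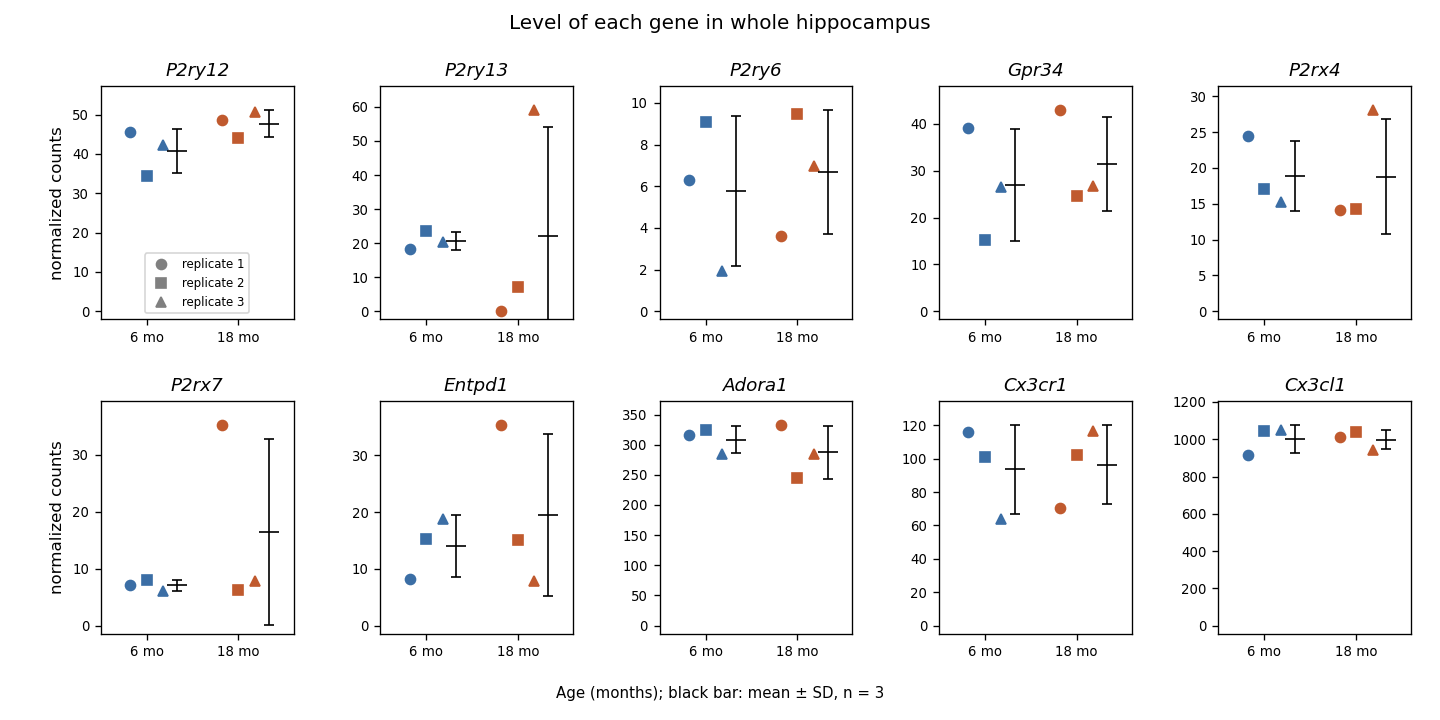
Normalized counts of each gene in whole hippocampus (vertical axis, one scale per panel) at 6 and 18 months (horizontal axis); points are the 3 samples of an age, with the mean and SD beside them, and an SD bar that would pass below 0 runs out of the panel. The ages overlap in every panel, and single old samples stand high for P2ry13 (59.0), P2rx7 (35.2) and Entpd1 (35.4).

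**Figure D4:**
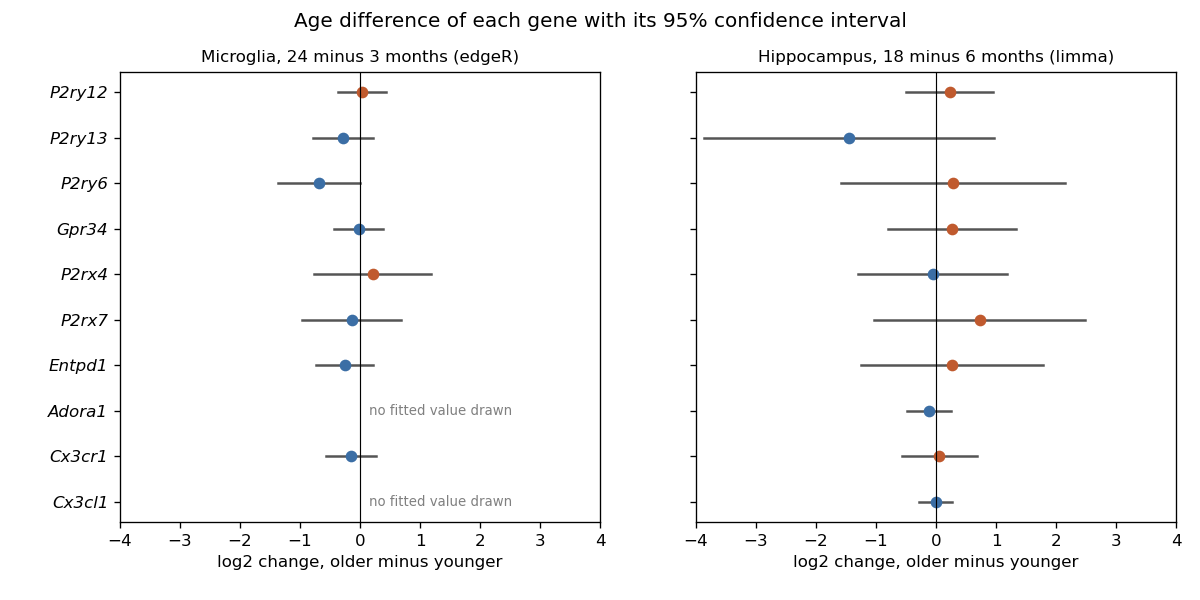
Log2 change with age (older minus younger, horizontal axis) and its 95% interval for each gene, from edgeR in microglia and limma in hippocampus. Points are red for a positive and blue for a negative fitted change. Adora1 in microglia, with the young libraries at 0 and a fitted log2 change of 8.85, is not drawn. Cx3cl1 there was not tested and is not drawn. The interval of P2ry6 in microglia ends at -0.00, and every other interval drawn spans 0.

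The 15 microglia identity genes were set beside the receptors in each hippocampus sample. Their sum was 735 ± 50.6 normalized counts at 6 months and 944 ± 7.13 at 18 months (SD, n = 3 each), higher in 3 of 3 old samples, with an exact two-sided permutation p of 0.1, the smallest that 3 against 3 can give. P2ry12 was 5.54% ± 0.665 of that sum at 6 months and 5.06% ± 0.363 at 18 months (SD, n = 3 each, exact permutation p = 0.3, adjusted p = 0.675). Cx3cr1 was 12.6% ± 2.96 and 10.2% ± 2.59 of it (SD, n = 3 each, exact permutation p = 0.4, adjusted p = 0.72). These ratios overlapped between ages.

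Cx3cl1 and Adora1 overlapped between ages in their own levels, and the higher identity sum at 18 months is the larger part of the difference in their ratios. The log2 ratio was lower in 3 of 3 old samples for each gene, by -0.37 for Cx3cl1 and -0.47 for Adora1 (exact permutation p = 0.1, adjusted p = 0.45 for each), while the identity sum itself differed by 0.36 and the 2 genes by -0.01 and -0.11. The adjustment is over the genes of the tissue, and no ratio could pass 0.05 in this design. In microglia, P2ry6 was 0.689% of the identity sum at 3 months and 0.502% at 24 months (exact permutation p = 0.1, adjusted p = 0.8). P2ry12 was 3.86% and 4.83% of it (exact permutation p = 0.3, adjusted p = 0.914), and its ratios overlapped between ages. The log2 ratio of P2ry12 differed by 0.30, while the identity sum itself differed by -0.27 and P2ry12 by 0.03.

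**Figure D5:**
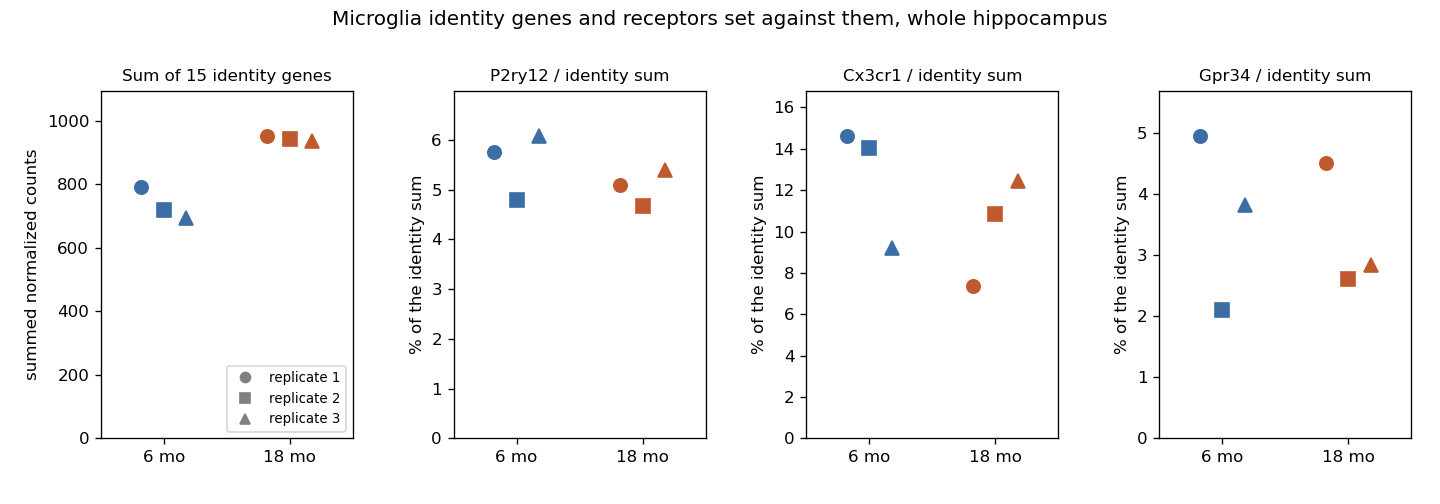
Summed normalized counts of 15 microglia identity genes in each hippocampus sample, and genes of the nucleotide and fractalkine system as a percentage of that sum (vertical axes) at 6 and 18 months. The sum is higher in every 18 month sample, and the ratio of P2ry12 overlaps between the ages (mean 5.54% and 5.06%).

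Of the 62 further genes, 51 were in the hippocampus table, 48 were tested and 0 were called by limma. At an unadjusted p under 0.05, 1 was higher (Ctss) and 1 lower (P2rx5), beside 2.13% of all tested genes higher and 3.24% lower. The median log2 change was -0.05, against -0.04 for all genes. Ctss, a cathepsin that can cut fractalkine and is also 1 of the identity genes, went from 109 ± 12.3 to 164 ± 3.69 normalized counts (SD, n = 3 each). Its log2 change was 0.59 ± 0.21 (SE), with a limma adjusted p of 0.877. P2rx5, an ATP-gated channel, lay between 1.25 and 5.34 at 6 months and was listed at 0 in all 3 samples of 18 months. Kcnk13 had 8.76, 0 and 12.4 normalized counts at 6 months and 22.6, 13.5 and 18.5 at 18 months. It was higher in 3 of 3 old samples, with a mean of 7.04 at 6 months and 18.2 at 18 months. The log2 change, which includes the young sample at 0, was 1.89 ± 0.97 (SE), with a limma adjusted p of 0.909. Its direction was the opposite of that in microglia, where all old libraries were lower, but the tissues cover different ages and the difference was not tested. Adam10 and Adam17 had log2 differences of 0.26 ± 0.30 and -0.16 ± 0.64 (SE), with limma adjusted p of 0.937 and 0.983. Nt5e, Adora2a, Adora3 and P2ry1 were near the floor, with group means between 1.81 and 5.99 normalized counts, and none passed the test (adjusted p 0.913 to 0.9495). P2ry14 was not tested.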

How the data were processed

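RNA of 12 mouse samples was sequenced from cDNA made with an oligo-dT primer, template switching and tagmentation, per the labels' protocols. The authors deposited estimated counts, TPM and transcript lengths for microglia, per the file headers, and for each tissue a comparison table. Per the file headers, that table holds normalized counts, which are a signal made comparable across samples by the authors. It also holds the authors' log2 fold changes, standard errors, test statistics (a score) and p-values. Tools listed in the submitters' processing notes are DESeq, DESeq2 and kallisto, and the builds mm10 and GRCm39 are listed without roles. Deposited hippocampus log2 values run 6 over 18 months and were turned to 18 minus 6.

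The rounded estimated counts entered edgeR's quasi-likelihood model (version 4.0.16, R 4.3.3; TMM scaling, filterByExpr, 10663 genes), and CPM use the TMM-scaled library. The hippocampus was tested with limma 3.58.1 (mean trend) on log2(value + 1) for 13491 genes with at least 1 in at least 3 samples. DESeq2 1.42.0 was an alternative. Tests were two-sided, with Benjamini-Hochberg adjustment across every gene tested and a threshold of 0.05. Ratios to identity genes were tested by exact permutation. A gene at 0 in a group was set against a floor of 3 counts, which covers counting error only. The fits were tested on simulated data. The blank entry held 0.0546% to 0.0771% of microglia counts and 0.0233% to 0.0335% of the hippocampus signal and was left out. All sample columns matched a sample (0 did not). Symbols turned into dates (27 and 22) were not named.

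The genes and lists were chosen with earlier results of these data known. Named are the 10 genes, of the 62 further genes the 3 with the smallest p in each tissue plus Nt5e, Kcnk13, Adora2a, Adora3, Adam10, Adam17, P2ry1 and P2ry14, the 3 most alike genes for 5 receptors, and Fos and Tnf. A gene that the rule takes is not reported here. Replicate numbers were taken from the labels.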

Additional observations from a re-analysis of the deposited data

How the results depend on the processing

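Under other settings, 441 values were recomputed. These settings were DESeq2 size factors or Wald test, no filter, length offsets, other pseudocounts and filters, TMM rescaling and the replicate block. Each library was also left out in turn, and ratios were also taken to the geometric mean of the identity genes. Of the 441, 414 counted as the same and 25 reversed direction, 24 of them with 1 library left out. For a log2 change, the same meant an unchanged direction and side of the threshold. For a count of called genes or a ratio to the identity genes, it meant only a value near the main one. Only log2 changes could count as reversed. The lowest and highest log2 changes with 1 library left out, where they cross 0, were, in microglia, -0.0509 and 0.10 for P2ry12, -0.18 and 0.45 for P2rx4, -0.44 and 0.22 for P2rx7, and -0.11 and 0.0535 for Gpr34. In hippocampus they were -2.91 and 0.0404 for P2ry13, -0.24 and 0.66 for P2ry6, -0.36 and 0.14 for P2rx4, -0.00127 and 1.17 for P2rx7, -0.27 and 0.76 for Entpd1, -0.0826 and 0.58 for Gpr34, -0.20 and 0.26 for Cx3cr1, -0.0701 and 0.0352 for Cx3cl1, and -0.22 and 0.000604 for Adora1. Leaving out replicate 1 of both microglia ages, chosen after seeing the data, turned Cx3cr1 to 0.0250. The cause of these changes was not tested. DESeq2's Wald test called 1 of the 10 genes higher in microglia (Adora1), against 0 with edgeR, and 251 genes in all; the cause was not tested. Without 24 month replicate 3, 55 genes were called in microglia, none of them among the 10. Deviations of same-numbered samples from their group means had correlations of -0.027 to 0.0649 in microglia and 0.00941 to 0.0142 in hippocampus, and not every sample correlated best with its own number, so the numbers were not taken to pair samples. With the replicate block, 0 of the 10 genes were called in either tissue, and the log2 change of P2ry6 in microglia was -0.74. P2ry6 and P2rx7 gave no value in hippocampus at a filter of 10 in 3 samples.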
